A study of Mus musculus with 12 samples.

Results

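Proteasome genes were taken from the liver RNA-seq table as the rows whose symbol begins with Psma, Psmb, Psmc, Psmd, Psme, Psmf or Psmg followed by a number. The rule found 50 genes of 21683 in the table, and 47 of them were among the 12459 genes with enough counts to be tested. Of the 50, 31 encode constitutive subunits, 3 encode the inducible catalytic subunits of the immunoproteasome (Psmb8, Psmb9 and Psmb10), 13 encode activators, an inhibitor or assembly chaperones, and 3 are other symbols. Livers came from male WT F1 mice (C57BL/6J) of 2 groups, 6 with paternal DCHP and 6 with paternal control. In the paternal DCHP group, sires were gavaged with dicyclohexyl phthalate (DCHP), a phthalate plasticizer, for 4 weeks from 8 weeks of age, and in the paternal control group sires received the corn oil vehicle on the same schedule. Dams were unexposed. F1 males of both groups were put on a high-fat diet (HFD) at 3 weeks of age and kept on it for 9 weeks. Litter and sire are not named for any animal, and all p-values therefore rest on the spread among single animals. The question is whether the genes of the protein degradation machinery are expressed differently in livers of the paternal DCHP group.

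The proteasome degrades proteins that carry ubiquitin. Its 20S core is a barrel of stacked alpha and beta rings, with the cutting sites on the beta subunits Psmb5 (chymotrypsin-like), Psmb6 (caspase-like) and Psmb7 (trypsin-like), and the 19S regulatory particle binds ubiquitinated proteins, unfolds them with a ring of ATPases and feeds them into the core. In cells exposed to interferon-gamma, Psmb8, Psmb9 and Psmb10 are built into new cores in place of Psmb5, Psmb6 and Psmb7, and the resulting immunoproteasome favours peptides that fit MHC class I molecules. When proteasome activity falls short, the transcription factor Nfe2l1 raises the subunit genes together through antioxidant response elements in their promoters.

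The promoters of Psmb5 and Psmb6 are shown, the catalytic genes whose RefSeq start lies within 30 bases of the GENCODE gene start. Each holds the antioxidant response core letters TGACNNNGC close to its start. Each line gives the 150 bases before the RefSeq start in GRCm38.p6, read 5′ to 3′ in the sense of the gene, with the motif in capitals. The Psmb5 line lies on the minus strand at chr14:54617996-54618145 and the Psmb6 line on the plus strand at chr11:70525207-70525356.
Psmb5: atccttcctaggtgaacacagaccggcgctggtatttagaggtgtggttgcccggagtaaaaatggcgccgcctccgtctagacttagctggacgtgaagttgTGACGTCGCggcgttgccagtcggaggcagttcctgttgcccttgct
Psmb6: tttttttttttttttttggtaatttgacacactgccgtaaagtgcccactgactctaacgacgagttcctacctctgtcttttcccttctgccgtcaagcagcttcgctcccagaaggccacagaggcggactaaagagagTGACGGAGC
The motif begins at -47 in Psmb5 and at -9 in Psmb6, counted from the RefSeq start. On either strand, TGACNNNGC was found in 13.33% of the 45 windows of 300 bases that RefSeq gives for 42 of the 50 genes, against 12.39% of all 32851 windows. The interferon-stimulated response letters GAAANNGAAA were found in 11.11% of the proteasome windows, against 3.443% of all windows, in the genes Psmd4, Psmd9, Psmb3, Psmg4 and Psme1. The limit of 30 bases was not applied to these shares. In Psmd9, Psmb3 and Psme1 the RefSeq start lies further than that from the GENCODE gene start. The STAT letters TTCNNNGAA were found in 6.667% of the proteasome windows and 8.298% of all windows. Among the 3 windows of Psmb8, Psmb9 and Psmb10, 0 held the interferon-stimulated response letters and 1 held the STAT letters. No 2 matches overlapped, and they describe letters in a window and not bound sites. The windows of Psmb8, Psmb9 and Psmb10 are not shown, since their RefSeq starts lie 474, 434 and 52 bases from the GENCODE gene starts. Psmb7 had no RefSeq window of 300 bases and was not searched.

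Depth was similar in the groups, with library totals of 23794728 to 30445338 estimated counts, and 29 of the 50 proteasome genes had at least 1000 counts in every library. Hepatocyte markers (6 genes) summed to 61775 to 88665 CPM in paternal DCHP livers and 64155 to 79552 CPM in paternal control livers, where CPM are counts relative to a TMM-scaled library size. One liver stood apart, namely DCHP 5, which had the highest summed Kupffer cell markers (691.6 CPM, with the 10 markers at 233 to 691.6 CPM in DCHP livers and 200.2 to 319.5 CPM in control livers). DCHP 5 was also the highest of the 12 livers for the summed hepatocyte, stellate cell and erythroid markers (88665, 116.8 and 290.6 CPM). Levels in a bulk tissue cannot tell fewer cells of a type from less RNA per cell. The hepatocyte marker Ttr was below every control liver in all 6 DCHP livers, at 3618 ± 223 CPM in DCHP livers and 4422 ± 205 CPM in control livers (SD, n = 6 each), with a log2 fold change of -0.29 ± 0.07 (SE, edgeR adjusted p = 0.0675) and a change under 1.5-fold. Of all tested genes, 1.24% lay wholly below the control livers. The other 5 hepatocyte markers had positive log2 fold changes. The largest were 0.40 for Cps1 (edgeR adjusted p = 0.147) and 0.38 for Apob (edgeR adjusted p = 0.168). The 5 neutrophil markers summed to 0.735 to 5.07 CPM in DCHP livers, all above the 0.043 to 0.702 CPM of control livers. Of these, S100a9 alone had enough counts to be tested, and it passed an adjusted p of 0.1 and a 1.5-fold change, at 1.85 ± 0.53 (log2 fold change, SE, edgeR adjusted p = 0.0950), but not without DCHP 5, at 1.90 (edgeR adjusted p = 0.134). S100a8 totalled 145 counts in DCHP livers and 19 in control livers, too few to be tested. Every DCHP liver lay above every control liver for S100a8, as in 0.915% of all tested genes. The defining marker Ly6g was at 0 in all 12. The part of these markers in the proteasome values was not tested.

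No proteasome gene was called differentially expressed. At a false discovery rate (FDR, edgeR quasi-likelihood test, Benjamini-Hochberg over all tested genes) under 0.1 with a fold change above 1.5, 0 of 47 were called in either direction, while 0.963% of all tested genes were called higher and 0.313% lower with paternal DCHP. DESeq2 and limma-voom also called 0 of 47, against 2.62% and 0.939% of all tested genes. The lowest FDR of a member was 0.176, for the assembly chaperone gene Psmg1. At an unadjusted p under 0.05, 2 members had a positive and 7 a negative log2 fold change by edgeR, with 2 and 8 by DESeq2 and 2 and 7 by limma-voom. The edgeR counts are 4.26% and 14.9% of the 47, against 10.6% and 8.34% of all tested genes. The count was 3, all negative, without DCHP 5, and it was also 3 without control 3 or DCHP 3 and 5 without control 6. In no member did the DCHP livers lie all above or all below the control livers, which happened in 0.915% and 1.24% of all tested genes.

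The data limit how large a difference could have gone unseen. For 44 of 47 members the 95% interval of the log2 fold change (gene by gene, not adjusted for the number of genes) excluded a 1.5-fold difference either way, including all 31 constitutive subunits. The exceptions were Psmb9, Psmg3 and Psma8.

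**Figure D1:**
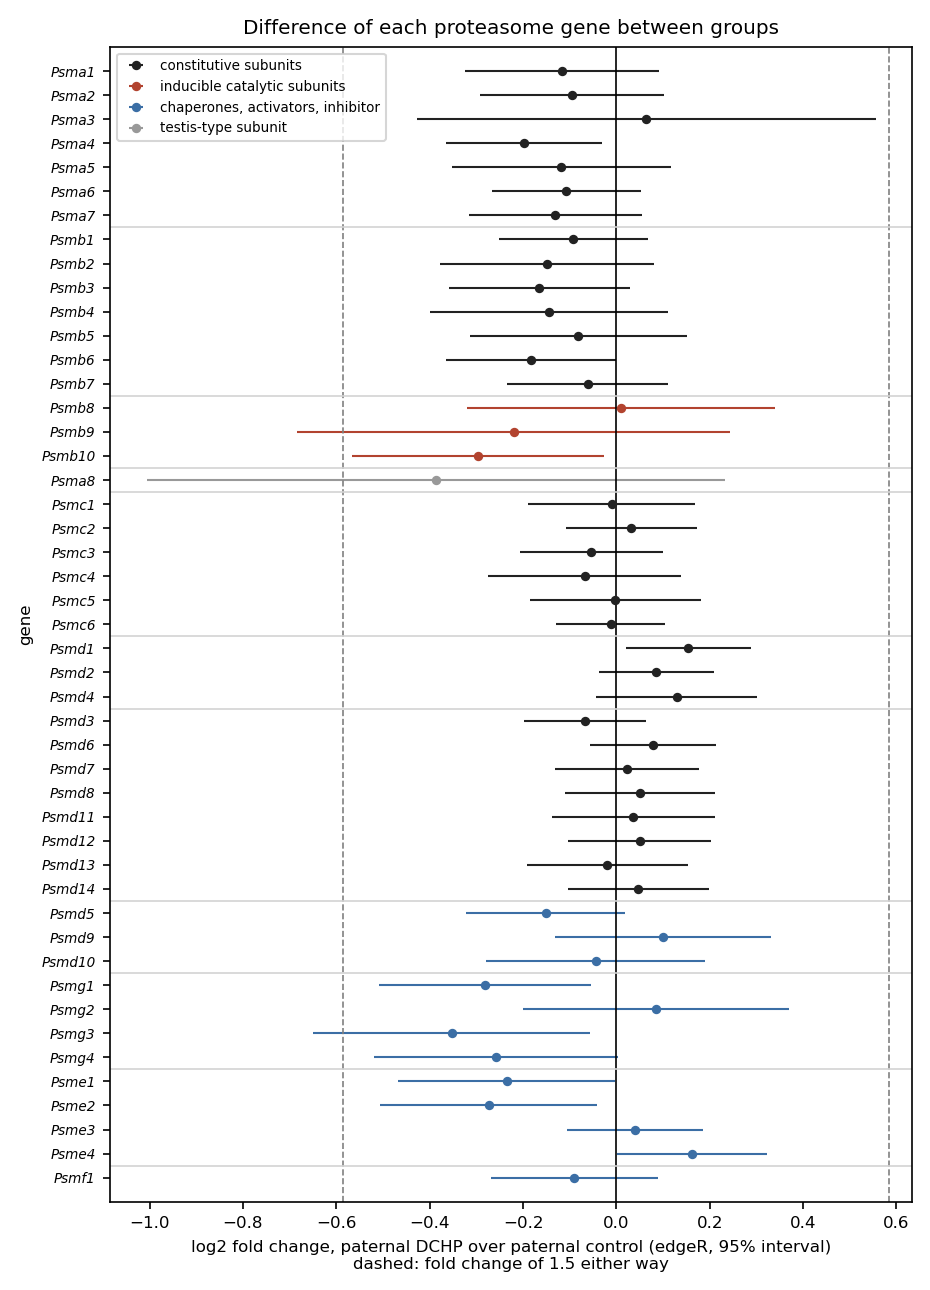
Log2 fold change (x axis, paternal DCHP over paternal control) of the 47 tested proteasome genes (y axis, grouped by role), with edgeR 95% intervals and dashed lines at a 1.5-fold change. Intervals of all 31 constitutive subunits lie between the dashed lines, 13 of the 14 core subunits lie left of 0 and 10 of the 17 regulatory particle subunits lie right of it.

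Among the 14 constitutive subunits of the 20S core (Psma1 to Psma7 and Psmb1 to Psmb7), 13 had a negative and 1 a positive log2 fold change. The median was -0.12 and the range -0.20 to 0.06. Over all tested genes the median was 0.01 and 48.5% were negative. None of the 14 passed the test, and 2 of them, Psma4 and Psmb6, had an unadjusted p under 0.05. With the dependence of each library on gene length and GC content removed, 0 of the 14 did. Per kilobase of principal transcript, mean levels over the 12 livers lay between 16.5 CPM for Psma3 and 103 CPM for the catalytic gene Psmb7.

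Psma4, an alpha ring gene, had 68.6, 83.3 and 86.3 CPM as the lowest, median and highest value in DCHP livers and 83.3, 91.1 and 102 CPM in control livers. Its log2 fold change was -0.20 ± 0.08 (SE, edgeR adjusted p = 0.193). The ranges overlapped between 83.3 and 86.3 CPM. Without DCHP 5 the log2 fold change was -0.16 (edgeR adjusted p = 0.306), and with the length and GC dependence removed it was -0.09 (edgeR adjusted p = 0.388). It lies on chromosome 9 from 54950790 to 54958030 (GRCm38), and a processed pseudogene, Gm6542, matches its coding frame at 96.8% identity.

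Psmb6 encodes the caspase-like catalytic subunit. It had 58.9, 75.7 and 80.7 CPM in DCHP livers and 72.3, 84.6 and 91.4 CPM in control livers. The log2 fold change was -0.18 ± 0.09 (SE, edgeR adjusted p = 0.261), and the groups overlapped in the range of 72.3 to 80.7 CPM. The difference was -0.13 without DCHP 5 (edgeR adjusted p = 0.414) and -0.08 with the length and GC dependence removed (edgeR adjusted p = 0.437).

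Psmb5, the chymotrypsin-like subunit, spanned 69.8 to 94.9 CPM (median 89.4) in DCHP livers and 65.5 to 106.7 CPM (median 91.6) in control livers. The log2 fold change was -0.08 ± 0.11 (SE, edgeR adjusted p = 0.718). Psmb7, the trypsin-like subunit, spanned 99.4 to 127 CPM (median 119) in DCHP livers and 101 to 137 CPM (median 125) in control livers, with a log2 fold change of -0.06 ± 0.08 (SE, edgeR adjusted p = 0.707). Both pairs of ranges overlapped, and in both genes the highest control liver lay above every DCHP liver. The lowest liver was control 1 for Psmb5 and DCHP 5 for Psmb7. Exons of Psmb7 share 405 bases with Nek6 on the opposite strand, which matters because the strand setting of the counts is not known. When the dependence of each library on gene length and GC content was removed, the sign turned for both genes (0.036 for Psmb5 and 0.044 for Psmb7). Single livers also set the size. For Psmb5 the log2 fold change was -0.03 without DCHP 5 and -0.16 without control 1, and for Psmb7 it was -0.02 without DCHP 5 and -0.11 without control 1.

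The alpha ring gene Psma3 varied most of the constitutive subunits, with a coefficient of variation of 26.9% over the 12 livers. It had 19.2, 50.7 and 62.2 CPM in DCHP livers and 33.1, 47.0 and 61.7 CPM in control livers. Low values lay in both groups, in DCHP 5 and in controls 1 and 2, and 3 processed pseudogenes match its coding frame at 96.5% to 100% identity, so that its count is uncertain. This limit is not particular to Psma3. A transcript of another gene matched 17 of the 50 members at 90% identity or more over at least 50% of the coding frame. Psmb5, Psmb6, Psmb7, Psme1 and Psmg3 were among the 17.

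The 17 constitutive subunits of the 19S regulatory particle that the symbol rule takes centred near 0. The median log2 fold change was 0.03, and the range was -0.07 to 0.15. By role, the 6 base ATPases (Psmc1 to Psmc6) had a median of -0.01, the 3 other base subunits (Psmd1, Psmd2 and Psmd4) 0.13 and the 8 lid subunits 0.04. None passed the test, and Psmd1 alone had an unadjusted p under 0.05. With the dependence of each library on gene length and GC content removed, 3 of the 17 had one, all with positive log2 fold changes. The lowest edgeR adjusted p of the 17 in that fit was 0.154.

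Psmd1, the large scaffold of the base, had 110.2, 113 and 129 CPM in DCHP livers and 96.3, 104 and 110.4 CPM in control livers. The log2 fold change was 0.15 ± 0.06 (SE, edgeR adjusted p = 0.206), and the ranges overlapped by less than 1 CPM. The highest liver was DCHP 5, without which the log2 fold change was 0.12 (edgeR adjusted p = 0.319). Psmd4, the ubiquitin receptor of the base, had 69.5, 76.1 and 87.4 CPM in DCHP livers and 63.5, 72.0 and 77.5 CPM in control livers. Its log2 fold change was 0.13 ± 0.08 (SE, edgeR adjusted p = 0.398). With the length and GC dependence removed it was 0.19 (edgeR adjusted p = 0.154).

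Regulatory particle genes varied little from liver to liver. Their coefficients of variation over the 12 livers had a median of 7.48%, against 11.2% for the core genes and 12.2% for the 3918 tested genes averaging 30 CPM or more. The ATPase gene Psmc6 was the steadiest member, at 3.42%, with 55.9, 62.2 and 64.1 CPM in DCHP livers and 59.95, 62.1 and 63.5 CPM in control livers. These values are descriptions, since members share the libraries.

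**Figure D2:**
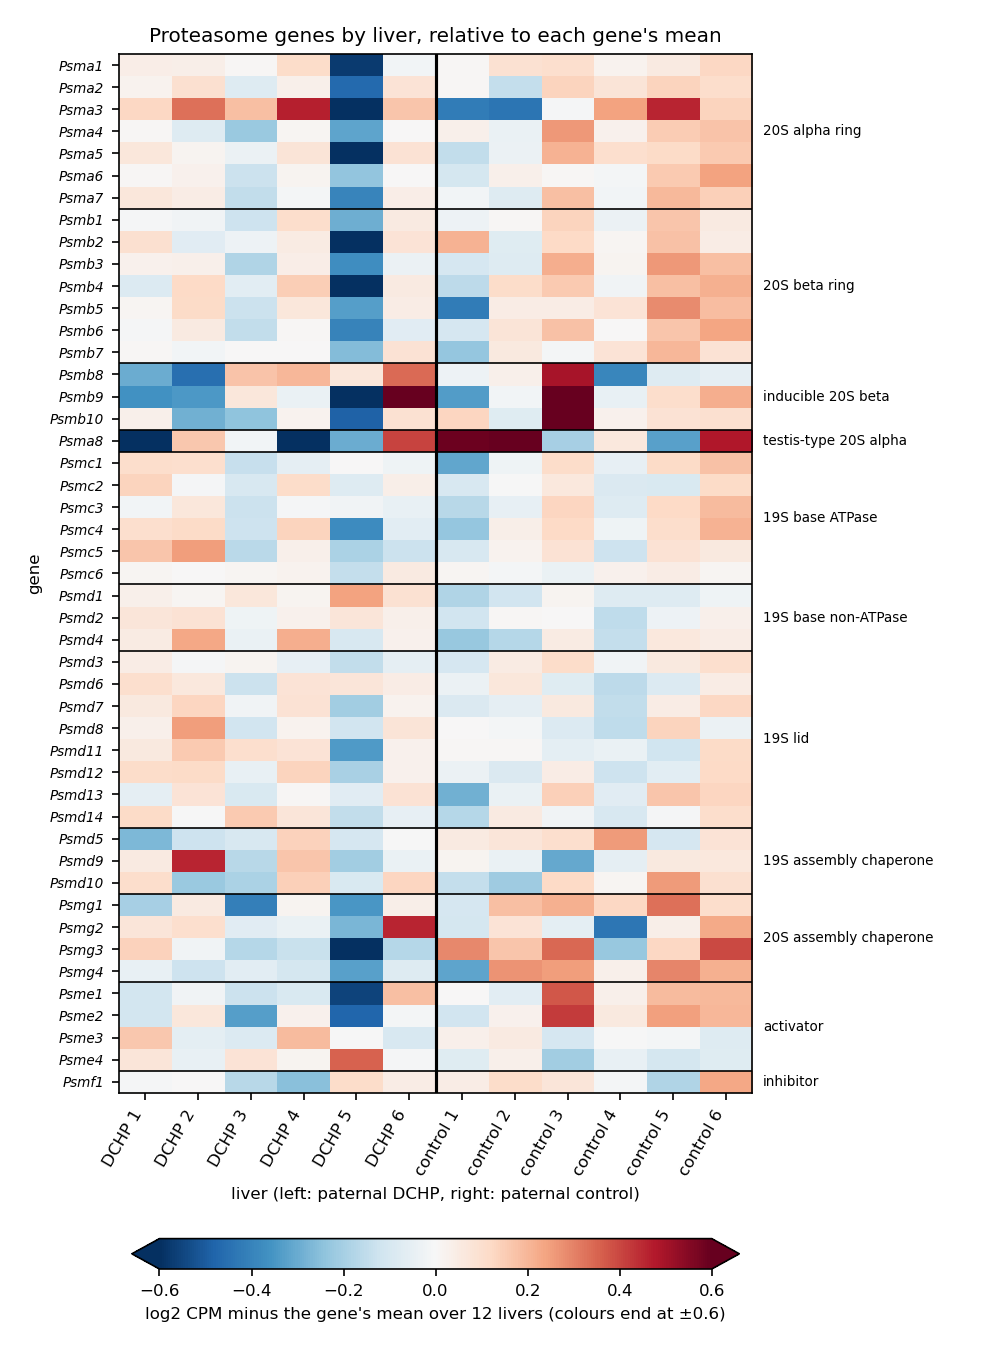
Levels of the 47 tested proteasome genes (rows, grouped by role) in the 12 livers (columns, paternal DCHP left and paternal control right), as log2 CPM minus the gene's mean, with colours ending at 0.6 either way. DCHP 5 forms a dark blue column over the 20S core and is lowest for 13 of its 14 genes, while control 3 is highest for all 3 inducible subunits.

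Core and regulatory particle genes did not move in step in every liver. In DCHP 5, 13 of the 14 core genes had their lowest value of the 12 livers, while 7 of the 17 regulatory particle genes did. The mean of the 14 core genes, as log2 CPM centred gene by gene, was -0.48 in DCHP 5, between -0.08 and 0.08 in the other DCHP livers and between -0.10 and 0.19 in control livers. Between groups the core mean differed by -0.12, or by -0.04 without DCHP 5. Its SD was 0.21 in DCHP livers and 0.11 in control livers (n = 6 each). The 17 regulatory particle genes averaged -0.10 in DCHP 5, within the -0.12 to 0.09 of control livers.

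The difference of the core mean from the regulatory particle mean was -0.38 in DCHP 5, -0.05 to 0.03 in the other DCHP livers and -0.01 to 0.16 in control livers. Group means of this difference were -0.07 ± 0.15 with paternal DCHP and 0.07 ± 0.07 with paternal control (SD, n = 6 each). They differed by -0.15, or by -0.09 without DCHP 5. The DCHP and control ranges overlapped even without that liver.

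A trend on gene length moved with the core genes. Each library's log2 CPM, centred on each gene's 12-liver mean, was fitted on log2 exonic length over genes of at least 10 CPM. The slope was 0.21 in DCHP 5, -0.03 to 0.09 in the other DCHP livers and -0.10 to 0.01 in control livers. Slopes are thus relative to the average liver, and longer genes read higher in DCHP 5 than in that average. Core genes are short, with a median exonic length of 1172.5 bases, against 1989 bases for the regulatory particle genes and 3341 bases for all tested genes. Mitochondrial genes held 8.03% of counts in DCHP 5, the top of the 5.22% to 8.03% of DCHP livers, and 5.61% to 6.98% in control livers. The part of the length trend, the mitochondrial share and cell makeup in the values of DCHP 5 was not tested.

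**Figure D3:**
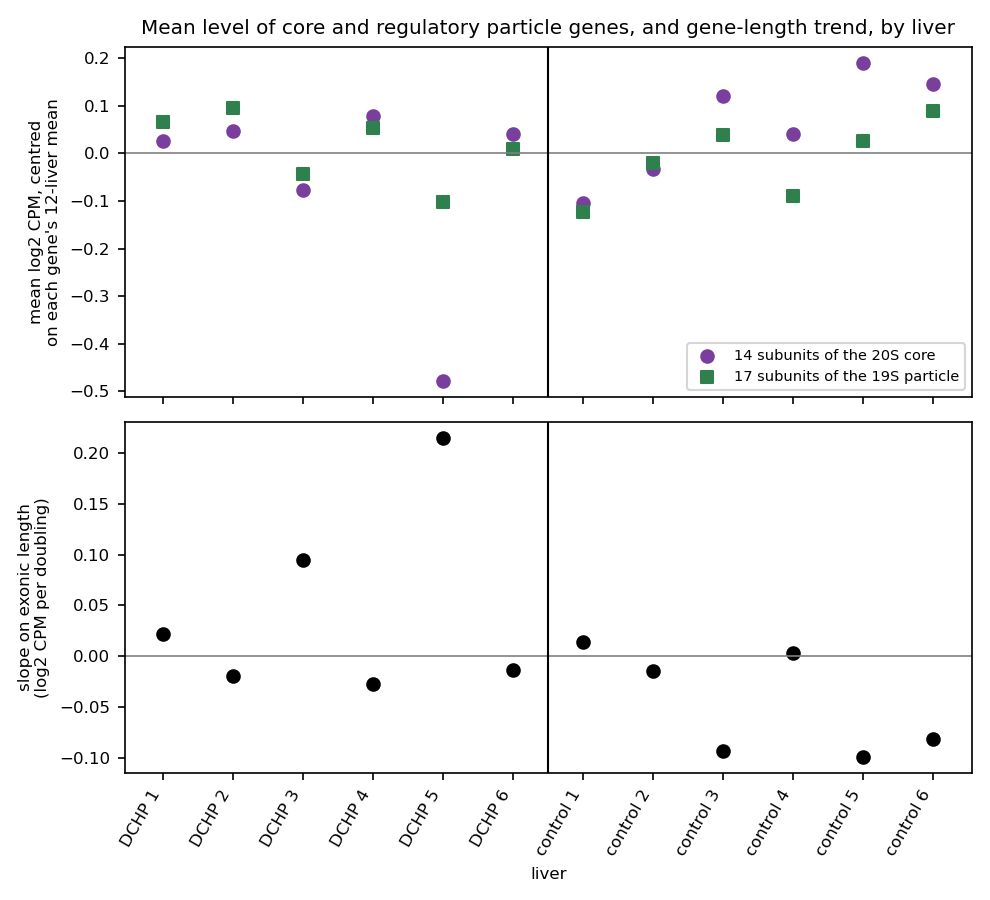
Upper panel, mean log2 CPM of the 14 core genes (circles) and the 17 regulatory particle genes (squares), centred on each gene's 12-liver mean. Lower panel, slope of the centred log2 CPM on log2 exonic length, by liver with paternal DCHP left. DCHP 5 has the lowest core mean (-0.48) and the steepest length slope (0.21).

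Without DCHP 5 the core median was -0.05, with 13 of 14 genes negative, and the regulatory particle median was 0.06. With each library's length and GC trend removed, the core median was -0.05 (10 of 14 negative) and the regulatory particle median was 0.07 (2 of 17 negative). The order of the medians, core below regulatory particle, held in all 21 alternatives run, in which the core median lay between -0.18 and -0.05 and the regulatory particle median between -0.01 and 0.07. The alternatives reuse the same libraries, and the split into core and regulatory particle was made after the data were seen. The order is therefore a description and no separate support. Over all 31 constitutive subunits the median was -0.05, or -0.01 without DCHP 5 and 0.02 with the trend removed.

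**Figure D4:**
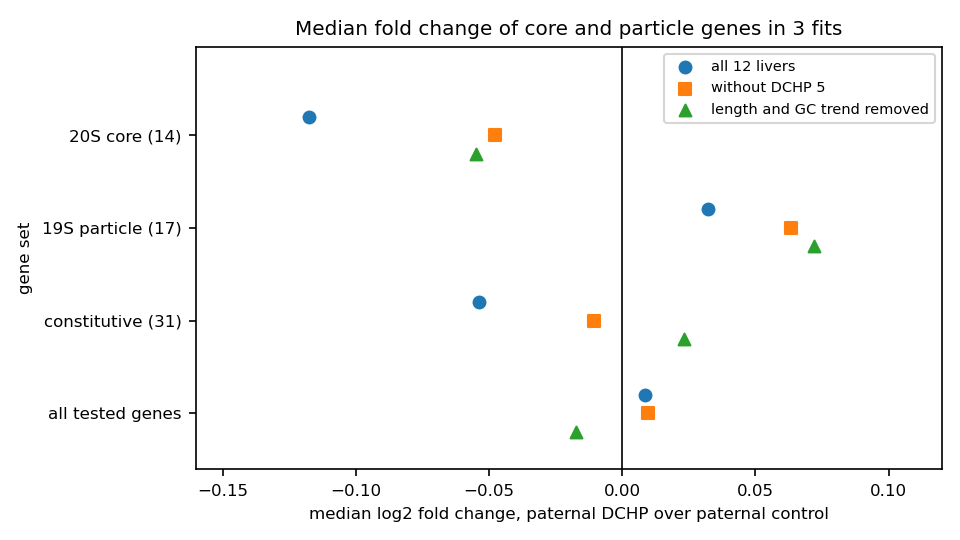
Median log2 fold change (x axis, paternal DCHP over paternal control) of core, regulatory particle, all constitutive and all tested genes, with all 12 livers, without DCHP 5, and with the length and GC trend removed. The core median is -0.12, -0.05 and -0.05 in these fits, and the regulatory particle median 0.03, 0.06 and 0.07.

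The inducible catalytic genes were less abundant than their constitutive counterparts in every liver. Per length of principal transcript, the ratio of Psmb8 to Psmb5 was 0.126 ± 0.031 in DCHP livers and 0.120 ± 0.033 in control livers (SD, n = 6 each, as for the next ratios). That of Psmb9 to Psmb6 was 0.156 ± 0.053 in DCHP livers and 0.159 ± 0.038 in control livers. That of Psmb10 to Psmb7 was 0.162 ± 0.016 in DCHP livers and 0.194 ± 0.044 in control livers. On the log2 scale the DCHP minus control differences of these ratios were 0.08, -0.06 and -0.23. The SDs of these log2 ratios were 0.39, 0.44 and 0.14 in DCHP livers and 0.39, 0.30 and 0.31 in control livers. They describe the spread of single livers, and the differences were not tested. With group medians in place of means the differences were 0.34, -0.12 and -0.09, so their sizes depend on the summary used. Leaving out 1 liver at a time gave -0.006 to 0.20 for Psmb8 over Psmb5 (lowest without control 4), -0.21 to 0.06 for Psmb9 over Psmb6 (highest without control 3) and -0.28 to -0.13 for Psmb10 over Psmb7, so that the sign of both of the first ratios turned and that of the third did not.

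Psmb8, which lies in the MHC region on chromosome 17 from 34197721 to 34201454, had 13.8, 20.6 and 23.9 CPM in DCHP livers and 14.4, 18.4 and 26.7 CPM in control livers. The log2 fold change was 0.01 ± 0.15 (SE, edgeR adjusted p = 0.979), with a 95% interval of -0.32 to 0.34. The ranges overlapped, with the highest value in a control liver and the lowest in a DCHP liver, and the sign depended on single livers.

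Psmb9, its neighbour from 34181987 to 34187764 on the same chromosome, had 12.4, 17.7 and 31.7 CPM in DCHP livers and 15.99, 20.8 and 34.9 CPM in control livers. The log2 fold change was -0.22 ± 0.22 (SE, edgeR adjusted p = 0.605), with a 95% interval of -0.68 to 0.24. It was -0.40 without DCHP 6 and -0.05 without control 3, the livers with the highest Psmb9 in their groups, and -0.12 without DCHP 5. Exons of Psmb9 share 212 bases with Tap1 on the opposite strand, so reads of the pair may not be separable.

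Psmb10, on chromosome 8 from 105935735 to 105938444, had 16.8, 21.9 and 25.1 CPM in DCHP livers and 22.4, 25.1 and 36.0 CPM in control livers. The log2 fold change was -0.30 ± 0.13 (SE, edgeR adjusted p = 0.221), which did not pass the test. Without control 3 it was -0.19, since that liver was far above the other controls, and without DCHP 5 it was -0.24. The ranges overlapped between 22.4 and 25.1 CPM.

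Control 3 was highest of all 12 livers for all 3 inducible genes. It also had the highest summed lymphocyte markers (8.19 CPM, against 2.52 to 5.42 CPM in DCHP livers and 2.64 to 8.19 CPM in control livers over the 9 of 10 listed genes in the table), and DCHP 6 had the highest sum in its own group. Control 3 and DCHP 6 were also highest in their groups for the summed dendritic cell markers (6.27 and 6.96 CPM). The same held for the 8 antigen presentation genes given below (1486 and 1454 CPM). Only 3 of the 10 listed lymphocyte markers had enough counts to be tested. Control 3 was also the highest control liver for the summed Kupffer cell markers (319.5 CPM). The highest DCHP liver for that sum was DCHP 5 (691.6 CPM). The part of lymphocytes, dendritic cells and Kupffer cells in the inducible genes was not tested. Among Kupffer cell markers, 10 of 10 had a positive log2 fold change (median 0.51, 0 called), and the median was 0.25 without DCHP 5, again with 10 of 10 positive. No Kupffer cell or lymphocyte marker in the table was at 0 in all livers.

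**Figure D5:**
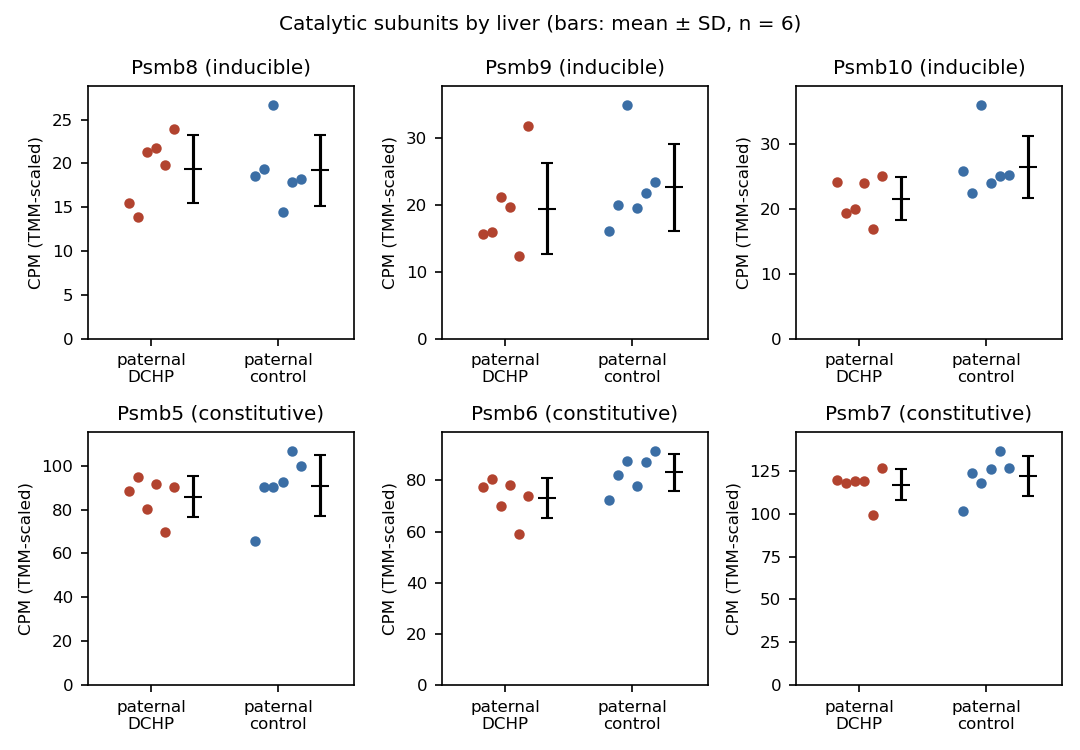
Levels in CPM (y axes, starting at 0) of the 3 inducible (top) and 3 constitutive (bottom) catalytic genes, each point a liver, with paternal DCHP left and the mean ± SD beside the points (n = 6). Groups overlap in all 6 genes, and control 3 is the highest point for Psmb8, Psmb9 and Psmb10.

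The thymus-specific Psmb11 and the testis-type Psma8 were near the floor of detection. Psmb11 had 24 counts over the 6 DCHP livers and 17 over the 6 control livers and was not tested. Psma8 had 82 counts over the DCHP livers and 108 over the control livers. Its log2 fold change was -0.39, with a 95% interval of -1.01 to 0.23 (edgeR adjusted p = 0.484).

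Psme1 and Psme2 encode the PA28 alpha and beta subunits, which cap the core in place of the regulatory particle and are induced by interferon-gamma together with the immunoproteasome. Psme1 had 43.4, 59.5 and 72.1 CPM in DCHP livers and 61.1, 69.0 and 82.4 CPM in control livers, with a log2 fold change of -0.23 ± 0.11 (SE, edgeR adjusted p = 0.260). Psme2 had 38.2, 50.9 and 55.6 CPM in DCHP livers and 48.9, 58.0 and 71.0 CPM in control livers, with a log2 fold change of -0.27 ± 0.11 (SE, edgeR adjusted p = 0.198). Neither passed the test. With the length and GC trend removed, Psme1 was at -0.15 (edgeR adjusted p = 0.268) and Psme2 at -0.19 (edgeR adjusted p = 0.152). Both had their lowest value in DCHP 5 and their highest in control 3, and without DCHP 5 Psme1 was at -0.16 and Psme2 at -0.21 on the log2 fold change scale. The genes lie together on chromosome 14, Psme1 from 55578123 to 55581529 and Psme2 from 55587441 to 55591113. The coding frame of Psme2 is 99.3% identical to that of Psme2b, which had 41 counts over the DCHP livers and 54 over the control livers and was not tested, so reads could be divided between them.

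The other tested activator genes, Psme4 and Psme3, had positive log2 fold changes, and neither passed the test. Psme4, the gene of the large activator PA200, had 138, 147 and 182 CPM in DCHP livers and 124, 136 and 146 CPM in control livers, with a log2 fold change of 0.16 ± 0.08 (SE, edgeR adjusted p = 0.262). Its highest liver was again DCHP 5, and the log2 fold change was 0.10 without it and 0.03 with the length and GC trend removed. Psme3, the nuclear PA28 gamma, was at 0.04 on the log2 fold change scale (edgeR FDR 0.782), and Psmf1, the inhibitor PI31, at -0.09 (edgeR adjusted p = 0.576).

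The 2 lowest p-values of all members were those of chaperone genes that assemble the core. Psmg1, a partner of Psmg2 in building the alpha ring, had 9.68, 12.1 and 13.3 CPM in DCHP livers and 11.98, 14.3 and 16.2 CPM in control livers, with a log2 fold change of -0.28 ± 0.11 (SE, edgeR adjusted p = 0.176). Psmg3, a partner of Psmg4, had 6.04, 8.97 and 10.96 CPM in DCHP livers and 8.51, 11.67 and 13.1 CPM in control livers, with a log2 fold change of -0.35 ± 0.14 (SE, edgeR adjusted p = 0.192). The ranges of both genes overlapped, and neither passed the test. Psmg4 had a log2 fold change of -0.26 and Psmg2 one of 0.09. Without DCHP 5 the values were -0.24 for Psmg1 and -0.26 for Psmg3. The 3 chaperones of the regulatory particle base, Psmd5, Psmd9 and Psmd10, had log2 fold changes of -0.15, 0.10 and -0.04, with no p under 0.05. With the length and GC trend removed, Psmd5 was at -0.22 (edgeR unadjusted p = 0.0095, edgeR adjusted p = 0.152). Psmc3ip, which the symbol rule also takes, encodes no proteasome subunit and had too few counts to test (20 in DCHP and 36 in control livers).

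Listed partners of the proteasome outside the rule included ubiquitin genes, deubiquitinases, shuttle factors, the core maturation factor Pomp and the regulators Nfe2l1 and Nfe2l2. The list also held the ubiquitin receptor Adrm1 and Sem1, which are regulatory particle genes that the symbol rule does not take. Of 27 listed, 26 were in the table and 0 were called, with 2 positive and 1 negative at an unadjusted p under 0.05, against 10.6% and 8.34% of all tested genes. Their median log2 fold change was 0.02, or 0.03 without DCHP 5. Uchl5, a deubiquitinase of the regulatory particle, had 14.1 ± 1.07 CPM in DCHP livers and 16.5 ± 1.03 CPM in control livers (SD, n = 6 each), a log2 fold change of -0.23 ± 0.08 (SE, edgeR adjusted p = 0.146), and all DCHP livers lay below all control livers. Ubqln1, a shuttle factor, had 159 ± 15.4 CPM in DCHP livers and 138 ± 6.17 CPM in control livers, a log2 fold change of 0.21 ± 0.07 (SE, edgeR adjusted p = 0.147), and all DCHP livers lay above all control livers. These 2 were the only partners whose ranges lay apart, and they are named because their p was the smallest of the list. Of all tested genes, 1.24% lay wholly below and 0.915% wholly above the control livers. Nfe2l1 differed by 0.09 on the log2 scale (edgeR FDR 0.567) and Pomp by -0.15 (edgeR adjusted p = 0.509). Adrm1 differed by 0.03 (edgeR adjusted p = 0.889) and Sem1 by -0.15 (edgeR adjusted p = 0.565).

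Of 8 genes that work beside the immunoproteasome in antigen presentation, 0 were called and the median log2 fold change was 0.02, with 1 positive and 0 negative at an unadjusted p under 0.05, against the same 10.6% and 8.34% of all tested genes. Nlrc5, a transactivator of MHC class I genes, had 21.4 ± 1.35 CPM in DCHP livers and 16.7 ± 2.92 CPM in control livers, with a log2 fold change of 0.35 ± 0.11 (SE, edgeR adjusted p = 0.112), and its groups overlapped. Irf1, an interferon-responsive transcription factor, had 16.004 ± 4.87 CPM in DCHP livers and 19.2 ± 9.44 CPM in control livers, with a log2 fold change of -0.26 ± 0.27 (SE, edgeR adjusted p = 0.617). The peptide transporter gene Tap1 had a log2 fold change of -0.003 and the MHC class I light chain gene B2m one of 0.06.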

How the data were processed

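For the 12 libraries the authors deposited estimated counts by gene symbol, in 1 table, with values that are not all whole numbers. The submitters' processing notes name the mm10 build. Aligner, counter, annotation and strand setting were not given in the sources used here. Estimated counts were rounded, genes were filtered with filterByExpr (minimum count 10), and groups were compared over all tested genes with the quasi-likelihood test of edgeR (version 4.0.16, R 4.3.3) with TMM factors and no covariate. Calls needed an FDR under 0.1 and a fold change above 1.5, the thresholds of the study. SE was taken as |log2 fold change| over the root of F. Levels are CPM, and levels per length use the principal transcript of GENCODE, matched by symbol. Centred values used a pseudocount of 0.5 CPM. Alternatives used DESeq2 (1.42.0), limma-voom (limma 3.58.1), other factors, filters and thresholds, a replicate block, removal of length and GC trends with splines (5 degrees of freedom, 12447 genes), and libraries left out. The edgeR script was tested on simulated data. Transcripts were compared with BLAST (2.17.0, at least 90% identity over at least 50% of the coding frame). Libraries of the same group were not duplicates of each other (chi-square per degree of freedom of 17.4 or more in 30 pairs).

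Members and lists were chosen with earlier results of these data known, and no list was tested as a set. Members named with full values are the 3 with the smallest p in each direction, Psmb5 to Psmb10, Psme1 and Psme2. Others are named for their role or after their values were seen, as were Psma3 and Psmc6. The split of constitutive subunits into core and regulatory particle was made after the data were seen.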

Additional observations from a re-analysis of the deposited data

Results flagged for a closer look

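In groups of 6 livers, a highest or lowest liver was set apart when its gap to the next liver, divided by the range of the group, was above Dixon's critical value for that number. Of 100 groups checked, 16 held such a liver, where chance gives about 1 in 20, and groups of genes that share a liver are not independent. DCHP 5 was the liver in 12 of the 16.

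Among core genes, DCHP 5 was far below the other DCHP livers for Psma1 (45.6 CPM), Psma2 (40.01 CPM), Psma3 (19.2 CPM), Psma5 (28.2 CPM), Psmb2 (25.02 CPM), Psmb4 (68.8 CPM) and Psmb7 (99.4 CPM). It was also far below them for the regulatory particle genes Psmc6 (55.9 CPM) and Psmd11 (56.6 CPM) and the chaperone gene Psmg4 (4.32 CPM). It was far above them for Psmd1 (129 CPM) and Psme4 (182 CPM). DCHP 3 was far below the others for the lid gene Psmd6 (54.4 CPM). Control 3 was far above the other controls for Psmb10 (36.0 CPM) and for the ratio of Psmb9 to Psmb6 per length (0.235), and far below them for Psmd9 (34.6 CPM).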

How the results depend on the processing

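No proteasome member was called under any of the 23 alternatives run for that count, and the lowest member FDR over the 21 alternatives that refit the genes was 0.12 to 0.29. Over all tested genes, the 159 calls became 326 with DESeq2, 479 at any fold change, 36 at an FDR under 0.05, and 7 to 233 with single libraries left out (7 without control 3, and 33 to 105 without control 1, 4, 5 or 6, DCHP 4 or DCHP 5). Members at an unadjusted p under 0.05 numbered 9, against 3 to 9 with single libraries left out. The constitutive median lay between -0.09 and -0.01 with libraries left out. Of 294 values of the 14 named members, 285 kept their sign and side of the threshold, and 9 in 3 members turned: Psmb5 (0.036) and Psmb7 (0.044) with the length and GC trend removed, and Psmb8 with upper-quartile factors (-0.012) and between -0.060 and 0.13 with libraries left out. The causes were not tested.

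Replicate numbers did not pair the livers, since correlations of same-numbered livers were -0.15 to 0.18, over 0.1 in 2 of 6, and 1 of 6 DCHP livers was closest to its own number. A fit with the replicate block left 59 calls over all genes and 3 members at an unadjusted p under 0.05.

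With 6 livers per group, the intervals of Psmb9, Psmg3 and Psma8 do not exclude a 1.5-fold difference.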
